A study of Mus musculus with 6 samples.

Results

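The hormone genes of the mouse beta-cell, Ins1, Ins2 and Iapp, were followed in beta-cells that had been reaggregated for 5 days with or without the other endocrine cells of the islet. They are the rows of the deposited table whose symbol is Ins1, Ins2 or Iapp. All 3 were found, among 13535 genes. Islets came from wild-type C57BL/6JRj male mice, 12 weeks old, and were sorted by flow cytometry into alpha-, beta- and delta-cells. Pseudo-islets were clusters rebuilt from alpha-, beta- and delta-cells, and pseudo-beta were clusters of beta-cells alone. Both were kept in RPMI medium with 10% fetal bovine serum, the labels name no added drug, and beta-cells were then sorted out of either kind of cluster for RNA sequencing. The labels number 3 independent experiments, 35, 36 and 37, each with 1 library of beta-cells from pseudo-islets and 1 from pseudo-beta, so n = 3 per culture type. The number of mice pooled in an experiment is not given in the sources used here. Clusters were rebuilt from sorted cells, so the libraries describe reaggregated and not native islets.

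Insulin is made as preproinsulin, which loses its signal peptide and is then cut in the secretory granule into the B chain, the C-peptide and the A chain. Mice and rats carry 2 non-allelic insulin genes. Ins2 has the exon and intron order of the insulin gene of other mammals, and Ins1 is a retroposed copy that lost an intron. Both are expressed in beta-cells. Iapp encodes islet amyloid polypeptide, or amylin, a hormone of the calcitonin family that is stored in the same granules and released with insulin. Transcription of these genes is driven in the adult beta-cell by factors such as PDX1, MAFA and NEUROD1.

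Ins1 (ENSMUSG00000035804) lies on the plus strand of chromosome 19 of GRCm38 at chr19:52264297-52265476, and its annotated transcript has 2 exons. Ins2 (ENSMUSG00000000215) lies on the minus strand at chr7:142678656-142743381, with 3 exons in its first annotated transcript. Iapp (ENSMUSG00000041681) lies on the plus strand at chr6:142298423-142303961, also with 3 exons. The 2 insulin coding sequences, 327 bases in Ins1 and 333 in Ins2, were identical at 302 of 333 aligned positions, or 90.7%. They differed by another base at 25 positions and by gaps at 6. Because a read from one gene can only be counted for it where the copies differ, the most different and the most similar windows of the coding sequences are shown, with capitals for bases that differ from or are missing in the other gene. The first pair, from coding base 183, has 14 differing positions and lies in the part that encodes the C-peptide.
Ins1, coding bases 183 to 251: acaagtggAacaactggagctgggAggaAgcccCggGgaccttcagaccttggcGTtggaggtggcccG
Ins2, coding bases 183 to 257: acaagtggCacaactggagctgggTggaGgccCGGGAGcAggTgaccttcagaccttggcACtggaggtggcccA
The second pair, coding bases 109 to 183, has 1 differing position and covers the end of the B chain.
Ins1, coding bases 109 to 183: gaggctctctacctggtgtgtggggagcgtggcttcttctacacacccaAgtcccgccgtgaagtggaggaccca
Ins2, coding bases 109 to 183: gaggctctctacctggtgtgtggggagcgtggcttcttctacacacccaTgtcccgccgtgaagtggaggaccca
No stretch as long as a sequencing read, 75 bases, was the same in both genes. None of the 988 such windows of the Ins1 transcript occurred in Ins2 and none of the 404 windows of the first Ins2 transcript occurred in Ins1, but 50 windows of either matched the other gene with at most 2 mismatches. The counts of the 2 insulin genes are therefore uncertain to the extent that RSEM split reads from these windows between them.

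The same similarity bears on the primer pair that the study lists for insulin, shown here with its Ins2 sites in capitals where a base differs.
Forward primer: cagagaccatcagcaagcag
Ins2 site of the forward primer: caAaAaccatcagcaagcag
Reverse primer: gggaccacaaagatgctgtt
Ins2 site of the reverse primer: ggAaccacaaagGtgctgCt
Both primers matched the Ins1 transcript without a mismatch, at bases 176 to 195 and 289 to 308. Counted from the 5′ end of each primer, the Ins2 site carried G3A and G5A under the forward primer and G3A, A13G and T19C under the reverse primer. No value measured with this pair is used here.

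Ins2 held the largest count of the table in every library, Ins1 the next and Iapp the third. Normalized counts are read estimates from RSEM that the authors normalized with DESeq2. They are not divided by transcript length, and their sums ran from 17994346 to 19635287 per library. The read depth behind them is unknown. Together the 3 genes made up 37.8% to 41.8% of the sum in a library.

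The pseudo-islet libraries of experiments 35, 36 and 37 held 1072128, 1159544 and 1399711 normalized counts of Ins1, and the pseudo-beta libraries, in the same order, 980206, 1028153 and 1210400. Both culture types were highest in experiment 37 and lowest in experiment 35, and their ranges overlapped. For Ins2 the pseudo-islet libraries held 5535869, 5869426 and 5971276 and the pseudo-beta libraries 5405326, 5449501 and 5669966. Ins2 was the steadiest of the 3, with a highest value 1.10-fold above its lowest, and again the ranges overlapped. For Iapp these values were 486264, 659700 and 842079 and then 447013, 531555 and 716804. It was the most variable, with a highest value 1.88-fold above its lowest, against 1.43-fold for Ins1. In every experiment each of the 3 genes was higher in the pseudo-islet library, yet for none of them were the culture types apart over all experiments, as they were for 10.8% of all genes.

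**Figure D1:**
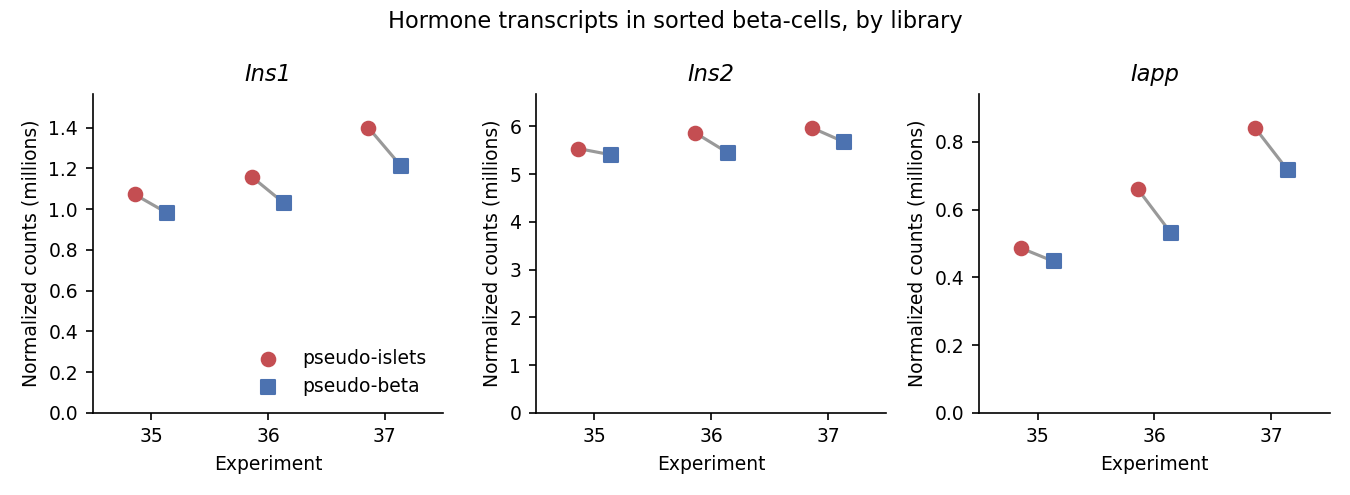
Normalized counts, scaled by 1e+06 (vertical axes, from 0, one scale per gene), of Ins1, Ins2 and Iapp in the 6 libraries by experiment. Circles are beta-cells from pseudo-islets, squares beta-cells from pseudo-beta, and a line joins the libraries of an experiment. Iapp lies between 447013 and 486264 counts in experiment 35 and between 716804 and 842079 in experiment 37, and the pseudo-islet point is the higher of each pair.

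As a share of all normalized counts, Ins2 stood at 29.7% to 30.8% of a library. Ins1 stood at 5.75%, 6.09% and 7.13% in pseudo-islets and at 5.42%, 5.71% and 6.59% in pseudo-beta. Iapp stood at 2.61%, 3.46% and 4.29% and at 2.47%, 2.95% and 3.90%. On this scale Ins2 no longer leaned to one side, being lower in the pseudo-islet library in experiments 35 and 37 and higher in experiment 36. Ins1 and Iapp stayed higher in pseudo-islets in 3 of 3 experiments, as did the shares of 11.8% of all genes.

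Levels of different genes can be set against each other only per length, and the transcript lengths used by RSEM are not given in the sources used here. With the first annotated transcript of each gene in GENCODE M21 (1062 bases for Ins1, 478 for Ins2 and 839 for Iapp), the mean over 6 libraries was 11821 normalized counts per base of transcript for Ins2, 1075 for Ins1 and 732 for Iapp. Per length, Ins2 was then 9.48- to 12.3-fold above Ins1, depending on the library. The order Ins2, Ins1, Iapp held with each of the other lengths tried, but the distance did not. Ins2 per length was 4.94- to 6.38-fold above Ins1 with the longest Ins2 transcript of 918 bases, 4.19- to 5.42-fold with coding lengths, and 5.36- to 6.93-fold with Ins1 ended where RefSeq ends it, at 601 bases. Per length and with first transcripts, Ins1 lay 1.31- to 1.74-fold above Iapp.

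The question of how the 2 insulin genes shared the insulin signal was addressed by their ratio, which does not depend on how libraries were scaled. Of all insulin counts, 15.4% to 19.0% came from Ins1. Per 100 Ins2 counts the pseudo-islet libraries of experiments 35, 36 and 37 held 19.4, 19.8 and 23.4 Ins1 counts, with a mean of 20.9 ± 2.25 (SD, n = 3). In pseudo-beta there were 18.1, 18.9 and 21.3, with a mean of 19.4 ± 1.68 (SD, n = 3). Experiments 35 and 36 lay close together and experiment 37 stood above them in both culture types.

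Per 100 insulin counts, that is Ins1 plus Ins2, there were 7.36, 9.39 and 11.4 Iapp counts in pseudo-islets, with a mean of 9.39 ± 2.03 (SD, n = 3). In pseudo-beta there were 7.0, 8.21 and 10.4, with a mean of 8.54 ± 1.73 (SD, n = 3). The ratio was lowest in experiment 35, intermediate in 36 and highest in 37 in both culture types. Iapp per 100 Ins1 counts was 45.4, 56.9 and 60.2 in the pseudo-islet libraries and 45.6, 51.7 and 59.2 in those of pseudo-beta, so amylin differed between experiments also against the insulin gene that varied more.

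**Figure D2:**
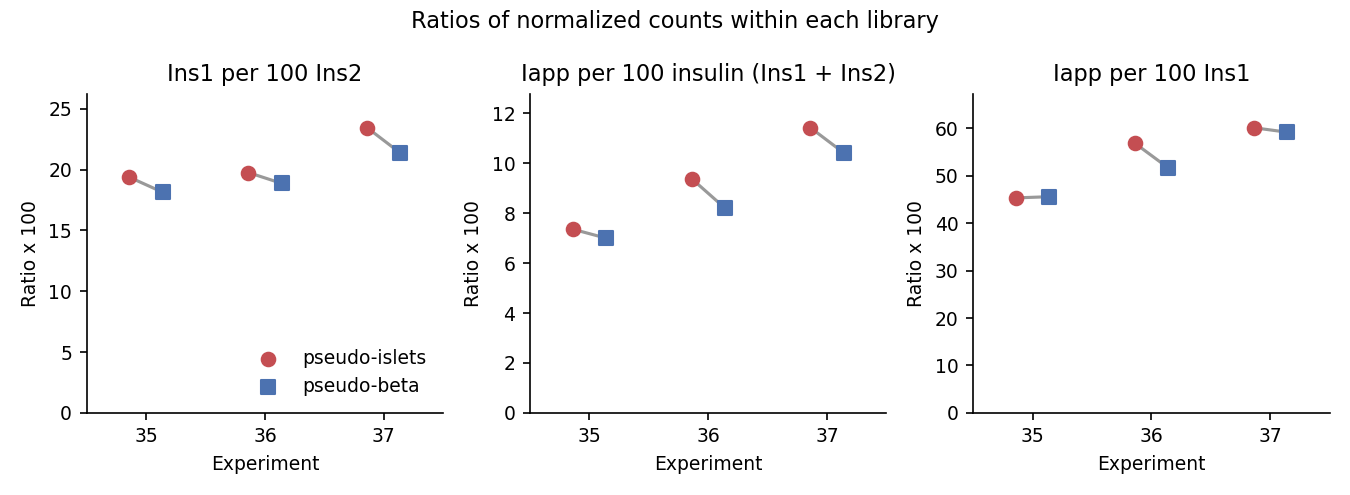
Ratios of normalized counts within each library, times 100 (vertical axes, from 0), by experiment: Ins1 to Ins2, Iapp to Ins1 plus Ins2, and Iapp to Ins1. Circles are pseudo-islets, squares pseudo-beta, and lines join the libraries of an experiment. Iapp per 100 insulin counts goes from 7.0 to 7.36 in experiment 35 to 10.4 to 11.4 in experiment 37, and in experiment 35 the pair of Iapp to Ins1 ratios, 45.4 and 45.6, nearly coincide.

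Between experiments, Iapp and Ins1 differed and Ins2 did not pass the test. Iapp was 0.74 ± 0.067 (SE) higher on the log2 scale in experiment 37 than in 35, and 0.34 ± 0.067 higher in 36 than in 35 (adjusted p = 0.000594, limma's F test over experiments with culture type as a term). Ins1 was 0.34 ± 0.062 higher in 37 and 0.09 ± 0.062 higher in 36 than in 35 (adjusted p = 0.0184). Ins2 was 0.09 ± 0.062 higher in 37 than in 35 (adjusted p = 0.619). Here and below, the p of this F test is for the 3 experiments together and not for the single difference it stands beside. Here 2 of 3 genes were called, in a table where 6.32% of all genes and 13.6% of the 4448 genes whose mean reached 500 normalized counts were called. Fold changes are on the log2(value + 1) scale, where the added 1 is negligible at these levels. Without a trend of the prior variance on mean expression, no gene of the table was called at an adjusted p under 0.05 by limma (1962 had an unadjusted p under 0.05), and the adjusted p was 0.332 for Iapp and 0.457 for Ins1. Without the term for culture type it was 0.0905 and 0.429. The call for Ins1 was also lost without the pseudo-islet library of experiment 36 (adjusted p = 0.0655), without that of 37 (0.0945) or without the pseudo-beta library of 37 (0.0801), while that for Iapp held without any 1 library (0.000246 to 0.00474).

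The ratios differed between experiments as well. The mean Ins1 to Ins2 ratio of an experiment ranged from 18.7 per 100 in experiment 35 through 19.3 in 36 to 22.4 in 37, a span of 1.19-fold. The mean Iapp to insulin ratio went from 7.18 per 100 in experiment 35 through 8.78 in 36 to 10.9 in 37, a span of 1.52-fold. The span of Iapp to insulin was 1.55-fold in pseudo-islets alone and 1.49-fold in pseudo-beta alone, and that of Ins1 to Ins2 was 1.21-fold and 1.18-fold. Libraries of one experiment were nearer to each other in the Iapp to insulin ratio than under any other of the 15 ways to pair 6 libraries (one-sided exact permutation p = 0.0667, the smallest these pairings can give). For Ins1 to Ins2 the p was 0.2 in the same exact test. When every library was scaled to its Ins2 value, so that the fit over all genes tested the ratio, Ins1 was 0.26 ± 0.039 higher in 37 than in 35 on the log2 scale (limma, adjusted p = 0.00809) and Iapp was 0.65 ± 0.044 higher (adjusted p = 0.000108), in a fit that called 7.82% of all genes. Scaled to Ins1 plus Ins2, Iapp was 0.60 ± 0.046 higher (adjusted p = 0.000236), and 9.26% of all genes were called. The scaled fits were not run without the trend or without the term for culture type. On the unscaled values, either change removed the calls for Ins1 and Iapp.

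The mice, cells, culture and library preparation of an experiment cannot be told apart as sources of such a difference. Several measures moved with the experiments. Among the more abundant genes (mean of 500 or more), the median log2 difference of experiment 37 minus 35 was 0.33 for the 163 genes whose longest protein-coding transcript has up to 800 bases and 0.18 for the 306 genes between 800 and 1200. It was -0.19 for the 991 genes between 2000 and 3000 bases and -0.22 for the 1285 genes between 3000 and 5000. The 3 hormone genes are all short, with longest transcripts of 1062 bases for Ins1, 918 for Ins2 and 839 for Iapp. Of the 469 genes up to 1200 bases, 29 had a larger difference than Iapp, 155 a larger one than Ins1 and 341 a larger one than Ins2. With each library corrected for a smooth curve on transcript length, Iapp was 0.50 ± 0.043 higher in 37 than in 35 (limma, adjusted p = 2.4e-05), Ins1 0.21 ± 0.038 higher (0.0068) and Ins2 had a difference of -0.11 ± 0.033 (0.0786). The sign of the Ins2 difference thus turned with this correction. Both the classes and the correction used the longest transcript. With 601 bases for Ins1, to the RefSeq end, and 478 for the first Ins2 transcript, both would fall in the class up to 800 bases. The median of that class, 0.33, is near the uncorrected 0.34 of Ins1. The correction was not run with these lengths.

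The mitochondrially encoded genes made up 1.3% and 1.5% of the counts in the libraries of experiment 37 and 0.726% to 0.864% in the other 4. The nuclear RNA Malat1 made up 0.637% in pseudo-beta of experiment 37 and 0.229% to 0.298% in the other 5 libraries. Ppy, the hormone of PP-cells, also followed the experiments, at 4172, 383 and 1790 normalized counts by experiment after culture in pseudo-islets and 1650, 219 and 731 after culture in pseudo-beta. Over the 4 PP-cell markers the sum ran from 1179 to 6065 in pseudo-islets and from 764 to 3259 in pseudo-beta. The part of these measures in the differences between experiments was not tested.

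**Figure D3:**
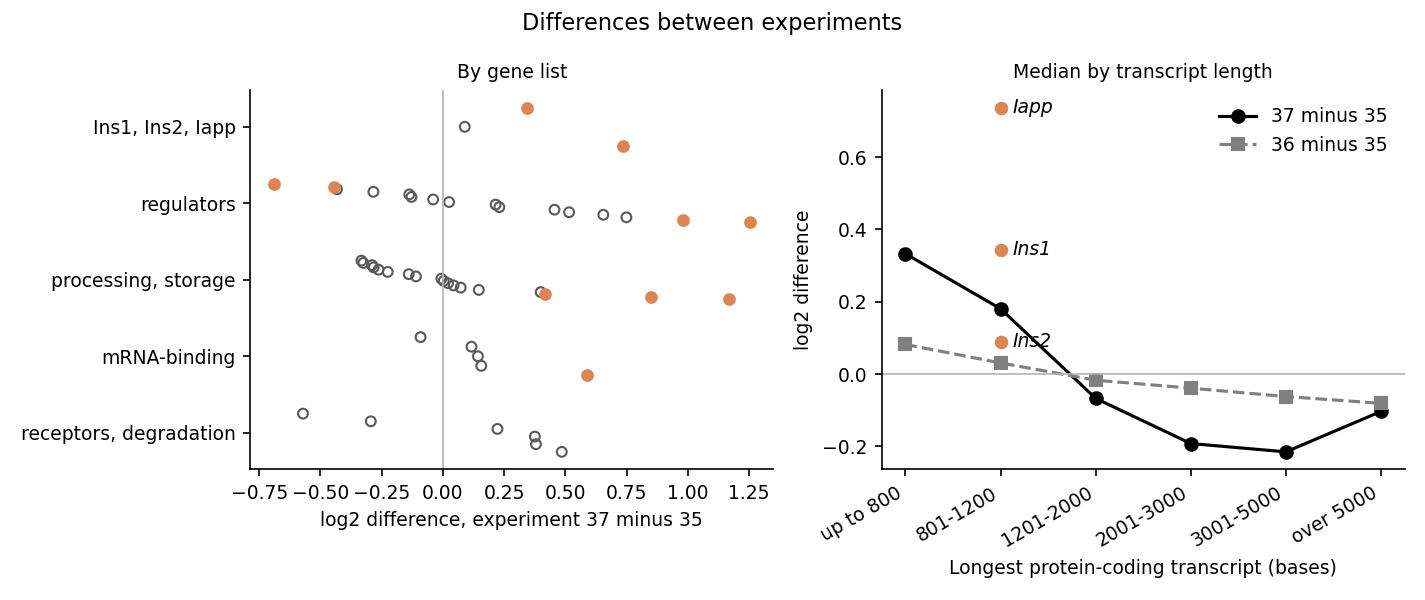
Left, log2 difference of experiment 37 minus 35 (horizontal axis) for each gene of the lists named on the vertical axis, with filled points for genes called between experiments by limma's F test and open points for the others. Right, median log2 difference of genes of mean 500 or more by class of transcript length in bases, for 37 minus 35 (circles) and 36 minus 35 (squares), with the 37 minus 35 values of Ins1, Ins2 and Iapp in their class. Iapp at 0.74 and Ins1 at 0.34 lie above the median of their class, 0.18, and Ins2 at 0.09 lies below it. Classes rest on the longest annotated transcript. Ins1 ended at the RefSeq end (601 bases) would fall in the class up to 800 bases, with a median of 0.33. So would Ins2 with its first annotated transcript (478 bases).

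The study asked whether alpha- and delta-cells alter expression in beta-cells, so the culture types were compared next. No hormone gene passed the test. In pseudo-islets over pseudo-beta, the log2 difference was 0.17 ± 0.15 (SE) for Ins1, 0.07 ± 0.15 for Ins2 and 0.22 ± 0.22 for Iapp (limma, adjusted p = 0.998 for each). Of all genes, 8 or 0.0591% were called, all higher in pseudo-islets, and 5.4% had an unadjusted p under 0.05, which none of the 3 hormone genes had. With the experiment as a replicate block the differences were the same and their errors smaller. For Ins1 the 95% interval was 0.06 to 0.28 (adjusted p = 0.212), for Ins2 it was -0.04 to 0.18 (0.638), and for Iapp 0.10 to 0.34 (0.138). These intervals are not adjusted for the number of genes, and 11.9% of all genes had an unadjusted p under 0.05 in that fit, while 73 genes, 0.539%, were called. They also rest on this fit: blocked but without the trend they were -0.17 to 0.51 for Ins1 and -0.14 to 0.58 for Iapp, and blocked without experiment 36 they were -0.019 to 0.36 and -0.0040 to 0.36, so that each included 0. Without the block they were -0.17 to 0.51 and -0.27 to 0.71. In 3 of 3 experiments each hormone gene was higher in pseudo-islets, as were 18% of all genes. Of the 4448 genes of mean 500 or more, 637 had a larger culture difference than Iapp, 1013 than Ins1 and 2039 than Ins2.

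Within experiments, Ins1 was higher in pseudo-islets by 9.38%, 12.8% and 15.6% in experiments 35, 36 and 37, Ins2 by 2.42%, 7.71% and 5.31%, and Iapp by 8.78%, 24.1% and 17.5%. The Ins2 difference rested on the scaling. With equal totals in every library it turned to -0.0013 ± 0.12 on the log2 scale, and Ins1 and Iapp came to 0.10 ± 0.13 and 0.15 ± 0.21. In bulk RNA, more cells of a type and more RNA per cell cannot be told apart, and neither can be read from these values.

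**Figure D4:**
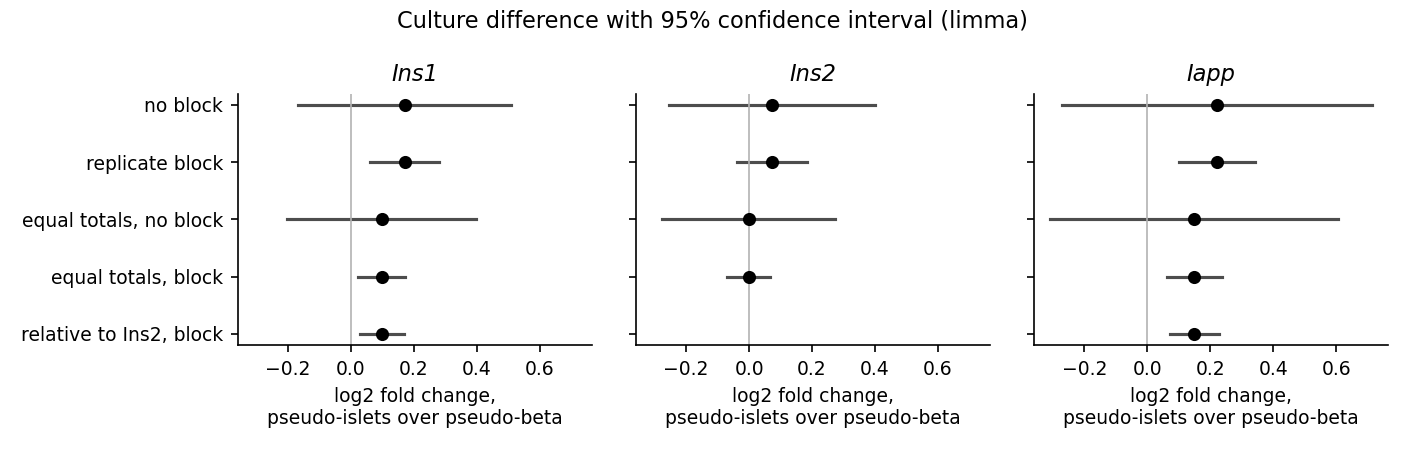
Log2 fold change of pseudo-islets over pseudo-beta (horizontal axis) for Ins1, Ins2 and Iapp, with points for the estimate and bars for the 95% confidence interval from limma, under the fits named on the vertical axis. With the replicate block the intervals of Ins1 (0.06 to 0.28) and Iapp (0.10 to 0.34) lie above 0, and that of Ins2 includes 0. These intervals are not adjusted for the number of genes, those of Ins1 and Iapp include 0 in the blocked fits without the trend or without experiment 36 (not drawn), and no adjusted p was under 0.05.

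Both ratios were higher in the pseudo-islet library of each experiment, by less than the span between experiments, and neither passed a test. Ins1 to Ins2 exceeded its pseudo-beta value by 6.80%, 4.71% and 9.81% in experiments 35, 36 and 37. The mean difference was 0.10 on the log2 scale, or 1.07-fold (two-sided exact permutation p = 0.5, 3 libraries against 3, where 0.1 is the smallest possible). Iapp to insulin was higher by 5.12%, 14.4% and 9.66%, with a mean difference of 0.13 on the log2 scale, or 1.10-fold (two-sided exact permutation p = 0.7). Within experiments, where 3 pairs cannot give an exact p below 0.25, both ratios gave that value in a sign-flip test. As background, 11.8% of all genes had a ratio to Ins2 that favoured pseudo-islets in 3 of 3 experiments, and 10.6% such a ratio to Ins1 plus Ins2. Scaled to Ins2 and with the replicate block, the log2 difference was 0.10 ± 0.032 for Ins1 (limma, adjusted p = 0.254) and 0.15 ± 0.036 for Iapp (adjusted p = 0.128). Relative to Ins1 the picture for Iapp was mixed: the Iapp to Ins1 ratio differed by -0.546%, 10.0% and 1.59%, higher in pseudo-islets in 2 of 3 experiments.

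The direction of the unpaired Iapp to insulin difference rested on single libraries, whose omission breaks a pair. It came to -0.020 on the log2 scale without the pseudo-islet library of experiment 37 and to -0.00088 without the pseudo-beta library of experiment 35. It reached 0.30 without the pseudo-islet library of experiment 35 and 0.29 without the pseudo-beta library of 37. With both libraries of 1 experiment left out it was 0.10 to 0.16, and that of Ins1 to Ins2 0.08 to 0.11. For Ins1 to Ins2, the omissions of 1 library gave 0.01 without the pseudo-islet library of 37, 0.05 without the pseudo-beta library of 35, 0.15 without the pseudo-islet library of 35 and 0.17 without the pseudo-beta library of 37.

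The beta-cell label was checked against 10 markers, Ins1, Ins2 and Iapp among them, and all were in the table. Ucn3 ran from 25299 to 32043 normalized counts, G6pc2 from 44075 to 56012 and Slc2a2 from 8573 to 16491. Hormones of the other endocrine cells were also counted. Gcg, the alpha-cell hormone, stood at 1763, 941 and 2094 in the pseudo-islet libraries, had 36.1 and 14.1 in pseudo-beta of experiments 35 and 36, and was listed at 0 in that of 37. Sst, the delta-cell hormone, had 190, 146 and 210 in pseudo-islets, was listed at 0 in pseudo-beta of experiments 35 and 36 and had 4.74 in that of 37. In the table were 6 of 12 alpha-cell markers, whose sum ran from 59734 to 68521 in pseudo-islets and from 49711 to 56524 in pseudo-beta, mostly Pcsk2, which beta-cells express. The 3 of 8 delta-cell markers present summed to 3737 to 4838 and 3343 to 4629. These sums were mostly Pdx1 (3094 to 4356 over the libraries), which beta-cells express and which is also among the beta-cell markers. None of 12 acinar or 8 stromal markers, 1 of 10 immune and 1 of 8 endothelial markers were in the table. With the block, Ppy (log2 difference 1.15, adjusted p = 0.00267) and Pyy (1.04, 0.0259), markers of PP-cells, and Ttr (0.59, 0.0303), an alpha-cell marker, were higher in pseudo-islets, as were Gcg (0.00148) and Sst (0.000734). Every gene of the table reached 10 normalized counts in 3 libraries. Gcg and Sst would not have done so from the pseudo-beta libraries alone, where Gcg reached 10 in experiments 35 and 36 only and Sst did not. The part of alpha-, delta- and PP-cell RNA in the culture differences of the insulin genes and Iapp was not tested.

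The factors that drive the insulin genes did not pass the test between culture types. Of 16 regulators, all in the table, none was called with or without the block, 6 had a positive fitted difference, and the median was -0.10 against 0.01 over all genes. Between experiments 4 of the 16 were called, where 6.32% of all genes and 13.6% of those of mean 500 or more were. Mafa, which binds the insulin promoter, had values by experiment of 733, 548 and 1692 (pseudo-islets) and of 639, 368 and 1572 (pseudo-beta), so that experiment 37 was highest and experiment 36 lowest in both. Its difference was 1.25 on the log2 scale between 37 and 35 and -0.61 between 36 and 35 (adjusted p = 0.000422). Insm1, an endocrine zinc-finger factor, was 0.98 higher in 37 than in 35 (adjusted p = 0.0168). Rfx6 and Pax6, which are needed for beta-cell identity, were lower in 37 than in 35, with differences of -0.69 (0.0152) and -0.45 (0.0482). Pdx1 had a difference of -0.43 (0.0589) and Neurod1 of -0.14 (0.336), and neither passed. Mafa and Iapp were both highest in experiment 37, while in experiment 36 Mafa was lowest and Iapp lay between the other experiments. A link between them was not tested.

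Among 18 genes of hormone processing, folding and storage, all in the table, none was called without the block. With the block 4 were higher in pseudo-islets, against 0.436% of all genes called in that direction. That share is not given for the more abundant genes alone, to which all 18 belong. In the blocked fit without the trend 0 genes of the table were called, these 4 genes included. The 4 genes called with the block and the trend were Ero1lb, an oxidase for disulfide bonds in proinsulin (log2 difference 0.55, adjusted p = 0.0020), Pcsk1, the convertase that starts proinsulin cleavage (0.43, 0.0279), Chgb, a granin of the granule (0.44, 0.0294), and Cpe, which trims the basic residues left after cleavage (0.35, 0.0429). Pcsk1 is among the genes the study took up from these same samples, so its call is no independent evidence of the list's direction. The median of the list was 0.18, against 0.01 over all genes, and 15 of 18 had a positive fitted difference. The share of positive differences over all genes is not given. Signs also rest on the scaling: with equal totals the median over all genes was -0.064, and the list was not summarised on that scale. For the more abundant genes, the medians by class of transcript length were 0.057 to 0.095 up to 5000 bases and -0.0075 above. Slc30a8, the zinc transporter of the granule, had -0.31 (0.166 with the block) and Pcsk1n, which encodes an inhibitor of PCSK1, -0.41 (0.0979).

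Between experiments, 3 of the 18 were called, a share near the 13.6% of genes of mean 500 or more called in that test (6.32% of all genes), so the count is no result about the list. Cpe stood by experiment at 24257, 40674 and 59681 (pseudo-islets) and at 21134, 30654 and 43457 (pseudo-beta). It followed the same order as Iapp with a larger difference, 1.17 on the log2 scale between 37 and 35 (adjusted p = 8.0e-05). Scg5, the chaperone of PCSK2, was 0.42 higher in 37 than in 35 (0.0327), and Ptprn, a granule membrane protein, 0.85 higher (0.00566). Pcsk2 differed by 0.02 (0.867) and Pam, which amidates the end of amylin, by 0.40 (0.215).

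Proteins that bind insulin mRNA gave 5 of 5 genes in the table, with no call between culture types and 1 between experiments, Hnrnpu (0.59 between 37 and 35, adjusted p = 0.0181), in a test that called 6.32% of all genes and 13.6% of those of mean 500 or more. Ptbp1, which stabilises insulin mRNA, differed by 0.14 between 37 and 35 (0.540). Of 10 genes for receptors and degradation of the hormones, 6 were in the table. Insrr, the insulin receptor-related receptor, was lower in pseudo-islets with the block (-0.56, adjusted p = 0.0418) and was not called without it (0.709). The insulin receptor Insr had -0.62 (0.299 with the block) and Ide, the insulin-degrading enzyme, 0.28 (0.435). Calcr, which forms the amylin receptor with RAMPs, was not in the table, while Ramp1 and Ramp2 were. Of the calcitonin family, 1 of 4 other genes was in the table, Adm2, at 74.9 to 157 normalized counts. None of the 7 other genes listed for the insulin superfamily was.

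Over the 6 libraries, likeness of profile was measured as the root mean square difference of log2 values after each gene was centred on its mean, among 4447 other genes of mean 500 or more. Among the nearest to Ins1 were Ndufa2 (0.040), which encodes a part of respiratory complex I, and Fau (0.042). Nearest to Ins2 were Ftl1 (0.017), Cbr1 (0.020) and Fuca1 (0.024), and nearest to Iapp were Spc25 (0.030), Serpina10 (0.032) and Ndufa1 (0.073). None of these is another hormone gene. Ins1 and Ins2 were 0.12 apart on this measure, Ins1 and Iapp 0.17 and Ins2 and Iapp 0.28. The longest protein-coding transcripts of the Iapp neighbours have 1527 bases for Spc25, 3498 for Serpina10 and 419 for Ndufa1, and those of Ndufa2 and Fau have 572 and 736.

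Because Ins1 and Iapp both differed between experiments, the 250 bases before their starts are shown, from RefSeq on GRCm38.p6, plus strand. Such windows were matched for these 2 of the 3 genes. Coding begins at base 210 of the Ins1 transcript, 92 of the first Ins2 transcript and 101 of that of Iapp. The insulin forward primer lies at bases 176 to 195 in Ins1 and its Ins2 site at 42 to 61. The annotated Ins1 start is thus further upstream of the shared sequence. Its window may therefore miss the promoter bases nearest to that sequence, and its match counts are not like for like with those of Iapp. Capitals mark TAAT in either orientation (TAAT or ATTA), the core that homeodomain factors such as PDX1 bind.
Ins1, chr19:52264047-52264296: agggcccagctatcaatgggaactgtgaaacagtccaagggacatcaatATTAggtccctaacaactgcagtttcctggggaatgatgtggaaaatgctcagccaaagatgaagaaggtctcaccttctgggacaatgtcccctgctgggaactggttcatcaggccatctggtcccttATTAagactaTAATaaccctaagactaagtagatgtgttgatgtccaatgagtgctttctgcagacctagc
Iapp, chr6:142298175-142298424: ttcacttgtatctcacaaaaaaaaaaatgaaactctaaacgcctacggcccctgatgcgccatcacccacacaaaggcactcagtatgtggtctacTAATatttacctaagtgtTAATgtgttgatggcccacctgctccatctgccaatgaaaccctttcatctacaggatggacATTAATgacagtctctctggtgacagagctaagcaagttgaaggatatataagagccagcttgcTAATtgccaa
Ins1 had 3 matches and Iapp 5, of which 2 overlap, and 54.9% of 32851 promoter windows of this length had at least 1. The E-box CANNTG, which basic helix-loop-helix factors such as NEUROD1 bind, occurred 2 times in Ins1 and 3 times in Iapp, and at least once in 66.2% of windows. TATAA on either strand occurred once in each, overlapping a TAAT match in Ins1, and in 22.8% of windows. The letters TGACG, searched on both strands, were in neither window and in 17.8% of all. These are matches of letters, not measured binding.

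Neighbouring genes did not share the order of the hormone genes throughout. Next to Ins2 in the table lie Mrpl23, 138 kb before it (0.40 between 37 and 35, adjusted p = 0.217), and Th, the tyrosine hydroxylase gene, 149 kb after it. Mrpl23 stood at 698, 730 and 894 (pseudo-islets) and at 655, 731 and 894 (pseudo-beta), in the order of the hormone genes, and was not called. Th stood at 1385, 1848 and 1069 (pseudo-islets) and at 1427, 2032 and 1138 (pseudo-beta), highest in experiment 36, with a difference of -0.35 between 37 and 35 (adjusted p = 0.0104). Iapp lies inside Slco1a5, a transporter gene on the opposite strand, which stood at 48.8, 222 and 182 (pseudo-islets) and at 41.6, 105 and 125 normalized counts (pseudo-beta; 1.72 between 37 and 35, adjusted p = 0.0186). Whether the counting used strand is not given in the sources used here, so that reads of these overlapping genes could not be told apart where exons meet. The nearest genes to Iapp on each side, Slco1a6 and Pyroxd1, differed by -0.13 (0.0267) and -0.21 (0.737), the former highest in experiment 36. Those of Ins1, Cfap58 and Xpnpep1, lie 4229 and 666 kb away and were not called between experiments (0.393 and 0.30).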

How the data were processed

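RNA was from beta-cells sorted after 5 days of culture, 3 libraries per culture type. Per the study's methods and the submitters' processing notes, the authors made libraries from 5 ng of total RNA with the Ovation Solo kit and depletion of ribosomal RNA, sequenced 75 bases from both ends, mapped the reads to GRCm38 by STAR 2.7.6a and estimated counts with RSEM 1.3.1. The deposited signal is normalized counts made with DESeq2 1.26.0 in R 3.6.3. The annotation and any filter on low genes are not given in the sources used here. The deposited table also holds the authors' mean, log2 fold change, its error, statistic and p-values, which were not used. Depth in reads is unknown, so precision comes from the 3 libraries per group. Errors and p-values from limma combine the spread of a gene between these libraries with a prior variance fitted over all genes. They do not measure the spread of that gene alone.

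limma 3.58.1 (R 4.3.3) was fitted to log2(value + 1) of all 13535 genes with a trend and no block. p-values were adjusted by Benjamini-Hochberg across the whole table, and calls are at 0.05. Experiments were tested by an F test over all 3 of them, with culture type as a term. Deviations from group means correlated at 0.119, 0.121 and 0.325 within experiments and at -0.203 to 0.0922 across them. The minimum set was 0.1, so the experiment numbers were taken as pairing, and a fit blocked on them (replicate block) stands beside the results. Ratios were tested by exact permutation. Scripts were tested on simulated data. The genes, lists and profile rule (per hormone gene, the 3 nearest genes of mean 500 or more, and the neighbouring genes) were chosen with earlier results of these data known. One of the genes nearest to Ins1 is not reported here. Transcripts and coordinates are from GENCODE M21. Lengths were matched for 85.5% of genes. Scaling to Ins2 or to insulin, the length correction, and the fits without a library for the experiment test were chosen after seeing the data.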

Additional observations from a re-analysis of the deposited data

How the results depend on the processing

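Across the alternatives run, Ins1 and Iapp kept a positive culture difference without passing the test, from 0.06 to 0.26 (22 fits) and from 0.03 to 0.43 (24 fits, adjusted p 0.0523 to 1.00). Some of these fits cannot move the estimate, such as the block, the filter on low values and the fit without the trend. They are no separate support for its direction. With the replicate block as paired fit, the culture differences were 0.17 for Ins1, 0.07 for Ins2 and 0.22 for Iapp, and none was called. In this balanced design they equal the unblocked ones by construction. Those of the ratios, 0.10 and 0.13, have the same value in both forms, and neither exact test could pass 0.05 at this size. With equal totals Ins2 turned to -0.0013, with and without the replicate block (20 fits, -0.0013 to 0.10). Leaving out 1 library, which breaks a pair, moved the Iapp to insulin culture difference between -0.020 and 0.30, and the Ins1 to Ins2 one between 0.01 and 0.17. Leaving out 1 experiment, which keeps the pairs, gave 0.10 to 0.16 and 0.08 to 0.11. The experiment difference of Iapp, 0.74, was not called without the trend (adjusted p = 0.332) or without the term for culture type (0.0905). That of Ins1, 0.34, was not called in these fits either (0.457 and 0.429), and leaving out 1 library gave 0.31 to 0.38 with adjusted p from 0.0286 to 0.0945. The cause was not tested.

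Genes called between culture types numbered 8. There were 73 with the replicate block, and 28, 73 and 45 in that paired fit without experiments 35, 36 and 37. There were 2 each with scaling that left out the 10 most abundant genes, with equal totals and without the trend. The replicate block gave 78 with equal totals, 82 without the 10 most abundant genes, 120 with the length correction and 0 without the trend (limma, 1136 with an unadjusted p under 0.05). Leaving out 1 library gave 0 to 13 (501 to 918 unadjusted). Read depth is unknown.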
